A study of Homo sapiens with 15 samples.

Results

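The transcripts of 46 genes that act in G2 and mitosis were followed across 5 groups of libraries from 2 human pancreatic ductal adenocarcinoma lines. The genes were taken from the deposited table by symbol, from a list of cyclins, mitotic kinases, spindle checkpoint proteins, regulators of anaphase, kinetochore, spindle and cytokinesis proteins, condensin subunits and markers of proliferation, and all 46 were found among the 25503 genes of the table. AsPC-1, a line grown from the ascites of a patient with this cancer, was transfected with a control siRNA (siNC), with an siRNA against B4GALT5 (siB4GALT5) or with an siRNA against B3GNT3 (siB3GNT3). Capan-1, a line grown from a liver metastasis, received siNC or siB3GNT3. Each of the 5 groups has 3 libraries of total RNA, and all cells, control or not, are labelled as treated with an siRNA. The labels give no dose, no time after transfection and no count of siRNAs per target. B4GALT5, a galactosyltransferase of the Golgi, forms lactosylceramide from glucosylceramide, and B3GNT3 adds N-acetylglucosamine to extend glycans; the series was made to ask how both affect MHC class I on tumour cells. Whether replicate libraries stem from separate cultures is not stated in the labels; p-values below thus measure only how these libraries spread, which may be technical.

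Entry into mitosis is driven by cyclin B bound to CDK1, which CDC25 phosphatases activate and in which PLK1 and the Aurora kinases take part. The spindle checkpoint holds back the anaphase-promoting complex until every kinetochore is attached, after which CDC20 lets the complex destroy securin and cyclin B, separase opens the sister chromatids, and the central spindle and anillin complete cytokinesis. Most of these genes are transcribed late in the cell cycle under FOXM1, B-MYB and the MuvB complex and are held down in resting cells by the DREAM complex, and they are high in dividing tumour cells.

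Many promoters of these genes carry the sequences through which that late transcription is known to run. Of the 13 genes that fell with siB3GNT3 in both lines, as described below, 5 are shown. KIF2C, NCAPG, NUF2 and SMC2 also fell in both lines, had no CCAAT in a window and are not printed. Windows from 250 bases before to 50 bases after the listed start came from RefSeq (GRCh38.p14). The search was for the cell cycle homology region, bound by MuvB, spelled TTTGAA or TTTAAA, and for CCAAT, the box bound by NF-Y, on both strands; the motifs do not overlap in spelling. Of the 46 genes 38 had at least 1 window, 50 windows in all. TTTGAA or TTTAAA was in 38 of these 50 windows (76%) and in 24% of the 35116 windows of all genes, CCAAT in 66% against 34.6%, and both together in 54% against 9.27%. By gene, 34 of the 38 had TTTGAA or TTTAAA in a window and 28 had CCAAT. Of the 8 genes with a window called lower in all 3 knockdowns, 8 had TTTGAA or TTTAAA and 4 had CCAAT. Of the 9 called lower in none, 7 had TTTGAA or TTTAAA and 7 had CCAAT. The 150 bases before the start are printed below from 5′ to 3′ in the direction of the gene, with matches to either motif on either strand in capitals (TTTGAA on the opposite strand reads TTCAAA): CCNB1 (cyclin B1) at chr5:69167000-69167149 on the plus strand, PLK1 (polo-like kinase) at chr16:23678739-23678888 on the plus strand, CDC20 (activator of the anaphase-promoting complex) at chr1:43358831-43358980 on the plus strand, DLGAP5 (a microtubule-binding protein of the spindle) at chr14:55191586-55191735 on the minus strand and ANLN (anillin) at chr7:36389712-36389861 on the plus strand.
CCNB1: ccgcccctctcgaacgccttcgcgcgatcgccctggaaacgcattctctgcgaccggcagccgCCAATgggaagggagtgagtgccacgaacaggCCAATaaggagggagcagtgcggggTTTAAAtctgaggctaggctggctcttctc
PLK1: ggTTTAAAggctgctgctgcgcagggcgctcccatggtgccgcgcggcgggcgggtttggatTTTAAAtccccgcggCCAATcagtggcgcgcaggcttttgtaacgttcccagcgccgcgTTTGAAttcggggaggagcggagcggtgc
CDC20: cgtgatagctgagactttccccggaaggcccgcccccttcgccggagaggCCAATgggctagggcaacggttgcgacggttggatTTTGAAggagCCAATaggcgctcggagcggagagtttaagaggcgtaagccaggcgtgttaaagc
DLGAP5: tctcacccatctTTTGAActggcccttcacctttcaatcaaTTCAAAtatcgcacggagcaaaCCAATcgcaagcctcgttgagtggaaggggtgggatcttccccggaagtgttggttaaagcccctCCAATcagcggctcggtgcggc
ANLN: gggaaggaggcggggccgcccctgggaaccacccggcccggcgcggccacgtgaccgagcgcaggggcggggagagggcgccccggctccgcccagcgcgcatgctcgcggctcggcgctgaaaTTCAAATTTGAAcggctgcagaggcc
CCNB1 has TTTAAA with its first base 30 bases before the start and CCAAT at 87 and 55 bases before it. PLK1 has TTTGAA at 29 bases, TTTAAA at 88 and 148 bases, and CCAAT at 73 bases. In CDC20 the order is CCAAT at 100 bases, TTTGAA at 65 bases and CCAAT at 55 bases, and in ANLN 2 copies of TTTGAA on opposite strands adjoin each other at 26 and 20 bases, with no CCAAT in the stretch. DLGAP5 has TTTGAA on both strands, at 138 and 109 bases, and CCAAT at 87 and 22 bases. A match is a description of the letters, and no binding was measured here. The windows of FOXM1, PIMREG, AURKA, TPX2, BIRC5, BUB3, TTK and UBE2C were not analysed here.

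The siRNA targets were read first. FPKM (fragments mapped per transcript length and library size) of B4GALT5 were 38.7, 35.8 and 35.5 in the AsPC-1 siNC libraries and 8.71, 8.49 and 8.03 in the siB4GALT5 libraries. B3GNT3 was at 22.5, 23.8 and 23.3 in AsPC-1 siNC and at 2.53 and 2.5 in siB3GNT3 replicates 1 and 2, but at 24.2 in the library labelled siB3GNT3 replicate 3, above every siNC library. In Capan-1 it was at 13.3, 13.2 and 13.7 with siNC and at 1.32, 1.67 and 1.84 with siB3GNT3. The targets fell by 2.00 (B4GALT5), 2.78 (B3GNT3 in AsPC-1, replicates 1 and 2) and 2.47 (in Capan-1) on the log2(FPKM + 1) scale, while B3GNT3 rose with siB4GALT5, to 32.4, 30.8 and 27.9 FPKM (log2 difference 0.37 ± 0.06 SE, adjusted p = 0.000892). Over the 46 genes the library labelled AsPC-1 siB3GNT3 replicate 3 differed from the siNC libraries by a root mean square of 0.0893 to 0.148 on the log2(FPKM + 1) scale and from replicates 1 and 2 of its own label by 0.439 and 0.461. It lay nearer to the siNC mean in 41 of 46 genes. It was left out of the tests below, so the AsPC-1 siB3GNT3 group rests on replicates 1 and 2, which were kept because their target was low. With it kept, no gene of 10804 tested was called for B3GNT3 in AsPC-1 by limma, and at an unadjusted p under 0.05 the count was 3011 genes, among them 16 of the 46 lower and 1 higher.

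By the step sizes of low FPKM, relative depth was 0.949 to 1.03 of the AsPC-1 siNC replicate 1 library. Only small ratios entered this estimate, so a large gap in depth could not have shown. Total read counts are not given in the sources used here. The 13 mitochondrially encoded mRNAs took 23.8% to 24.8% of summed FPKM in AsPC-1 siNC, 18.2% to 20.1% in the AsPC-1 knockdown libraries kept and 13.6% to 14.8% in Capan-1. Of 6 ductal epithelial markers KRT8, KRT18, KRT19 and EPCAM were at 23.3 FPKM or more in every library. In AsPC-1 CDH1 (E-cadherin) did not pass 0.561 and MUC1 was at 1.26 to 2.44. In Capan-1 CDH1 was at 17.4 to 25.5 and MUC1 at 55 to 60.3. Of 10 markers of fibroblasts, endothelium and leukocytes 9 stayed under 1 FPKM in every AsPC-1 group, CDH5 and CD3E at 0, and the remaining marker, LUM, was at 69.6 to 91.8. In Capan-1 COL1A1, LUM, CD14 and PECAM1 reached 1 FPKM, and the sum of the 10 was 61.2 to 66.6 with siNC and 85.1 to 90.6 with siB3GNT3. The part of these shifts in the results was not tested.

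G2 and mitosis genes were lower after each knockdown more often than higher, by a median of under 0.5 on the log2 scale. Differences were fitted with limma on log2(FPKM + 1) over all genes with at least 1 FPKM in 3 libraries, a filter all 46 passed in each fit, and were called at a Benjamini-Hochberg adjusted p under 0.05. With siB4GALT5 in AsPC-1 33 of 46 genes fell and 1 rose; the background was 23% of 10775 genes lower and 35.2% higher. With siB3GNT3 in AsPC-1 23 fell and 1 rose, against 20.4% lower and 32.5% higher (2193 and 3504 genes); median-ratio scaling of the FPKM moved the latter to 2765 and 2878 genes and the members that fell to 30. With siB3GNT3 in Capan-1 18 fell and 0 rose, against 14.2% lower and 18.7% higher of 11493 genes; at an unadjusted p under 0.05 the counts were 25 and 0. The median log2 difference of the 46 genes was -0.40, -0.289 and -0.237 in the order given, beside 0.062, 0.074 and 0.024 over all genes tested. The 46 genes were chosen with earlier results of these data known, so these counts describe the list. Both AsPC-1 comparisons share their siNC libraries. Libraries of the knockdown all lay below all siNC libraries for 32 genes with siB4GALT5 (background 25.5%), for 35 with siB3GNT3 in AsPC-1, where only 2 libraries had to clear 3 (30.7%), and for 27 in Capan-1 (22.1%). In bulk RNA a smaller share of cells in G2 and mitosis and less of these transcripts per cell cannot be told apart.

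**Figure D1:**
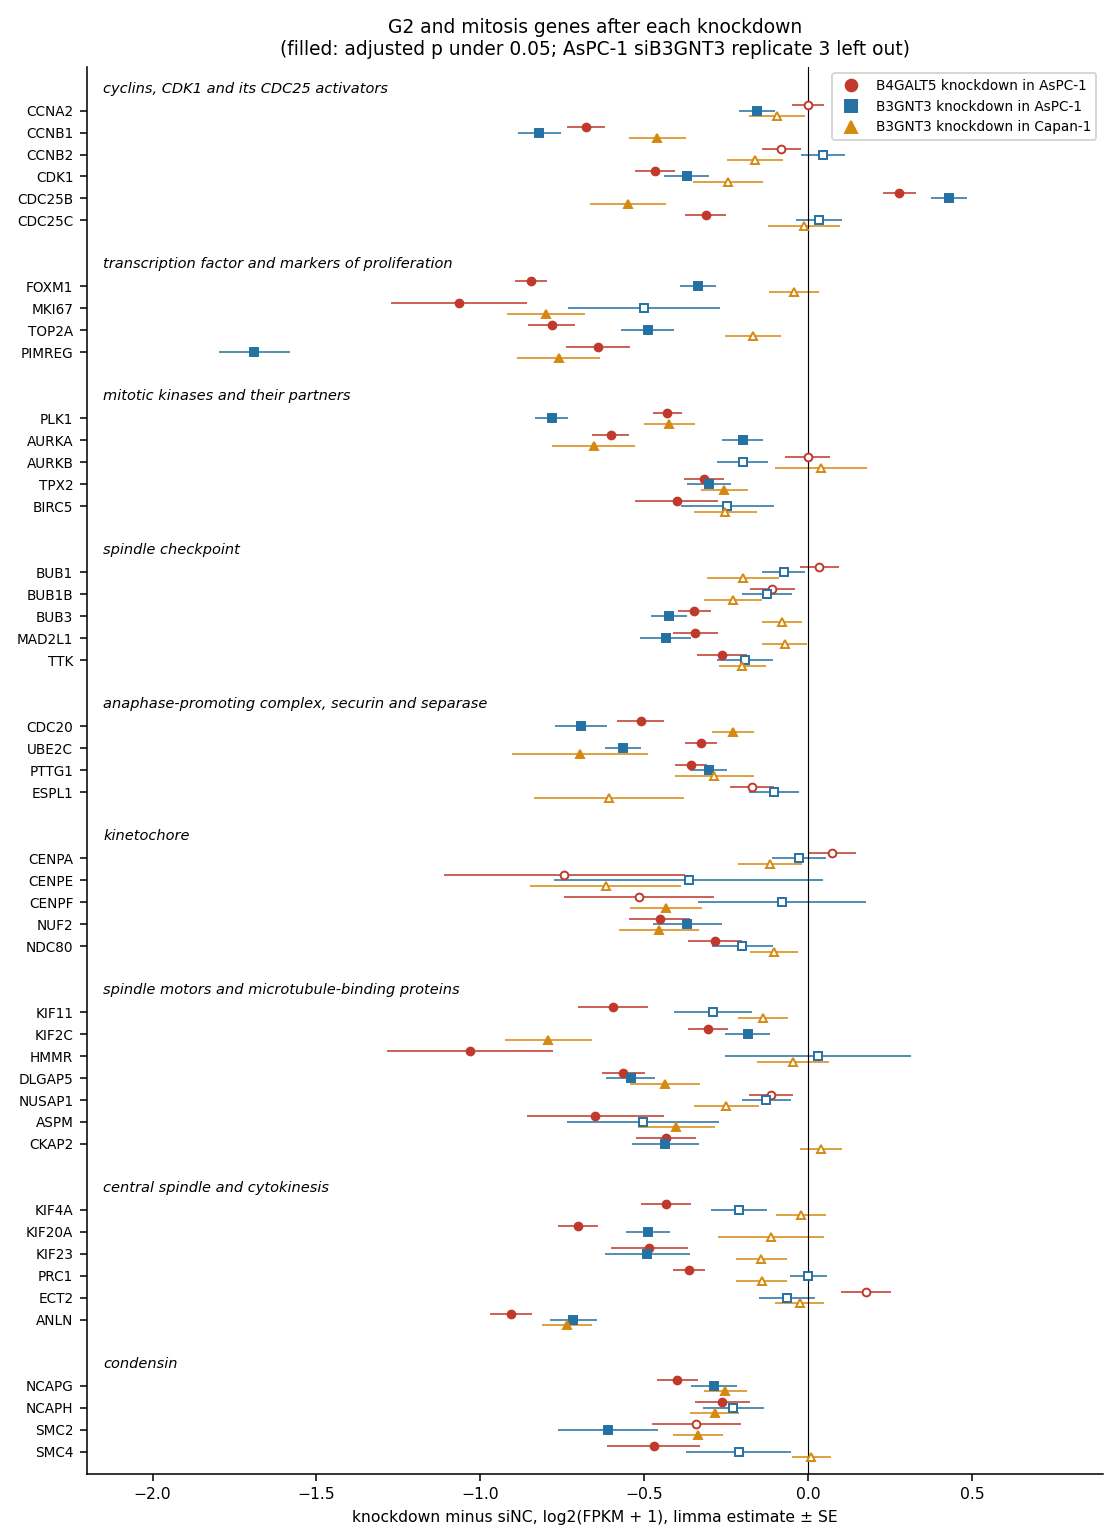
The 46 genes by role, with the log2(FPKM + 1) difference between each knockdown and siNC (limma estimate with its SE on the horizontal axis); filled symbols passed the adjusted p of 0.05. Most points lie left of 0 in all 3 comparisons, and CDC25B lies right of 0 in AsPC-1 and left of it in Capan-1.

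How far single libraries set these counts was checked by leaving out each in turn. The 33 genes lower with siB4GALT5 became 27 to 39. The 23 lower with siB3GNT3 in AsPC-1 became 15 to 32, with 15 when replicate 2 of siB3GNT3 was left out. In Capan-1 the 18 became 8, 9 and 10 without siNC replicate 1, 2 and 3, and 31 without siB3GNT3 replicate 3. Calls that held under every setting tried and without any 1 library, the library labelled AsPC-1 siB3GNT3 replicate 3 staying out, numbered 28 of 34 for siB4GALT5, 16 of 24 for siB3GNT3 in AsPC-1 and 8 of 18 in Capan-1. With siB3GNT3 13 genes fell in both lines, 56.5% of the 23 in AsPC-1 and 72.2% of the 18 in Capan-1. Of these, CCNB1, PIMREG, PLK1 and ANLN kept both calls throughout. The overlap between lines was not counted over all genes, so these shares have no background beside them. CCNB2, AURKB, BUB1, BUB1B, ESPL1, CENPA, CENPE, NUSAP1 and ECT2 were called in none of the 3 knockdown comparisons. Where 1 library is named below as ending a call, it is the one that gave the largest adjusted p. Some of these calls also ended without other libraries or under other settings.

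Among the 6 cyclin, CDK1 and CDC25 genes, cyclin B1 fell in every comparison and CDC25B moved in opposite directions in the 2 lines. CCNB1, the mitotic cyclin, was at 130.0, 139 and 144 FPKM in AsPC-1 siNC, 80.8, 85.2 and 91.04 with siB4GALT5 and 79.03 and 75.8 with siB3GNT3. In Capan-1 CCNB1 was at 104, 106 and 103 with siNC and 65.9, 80.6 and 81.6 with siB3GNT3. In both lines all knockdown libraries lay below all siNC libraries, and the log2 differences were -0.68 ± 0.06 (SE, adjusted p = 1.37e-05), -0.82 ± 0.07 (SE, adjusted p = 1.16e-05) and -0.46 ± 0.09 (SE, adjusted p = 0.00631). CDK1, its kinase, was at 37.5, 37.6 and 40.2 in AsPC-1 siNC, 27.1, 26.01 and 29.4 with siB4GALT5 and 30.6 and 28.4 with siB3GNT3. It fell by 0.47 ± 0.06 and 0.37 ± 0.07 on the log2 scale (adjusted p = 0.000183 and 0.00166). In Capan-1 CDK1 was at 41.7, 39.2 and 39.5 with siNC and 28.3, 35.4 and 38.3 with siB3GNT3, apart but not past the test (adjusted p = 0.112).

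CDC25B, a phosphatase that starts CDK1 activation, was the only member with called directions that differed. Its FPKM were 76.8, 71.3 and 74.5 in AsPC-1 siNC, 88.9, 94.03 and 87.7 with siB4GALT5 and 97.8 and 103 with siB3GNT3. In Capan-1 they were 59.2, 56.4 and 52.9 with siNC and 44.3, 39.3 and 31.6 with siB3GNT3. Every AsPC-1 knockdown library was above every siNC library and every Capan-1 knockdown library was below. The gene rose by 0.28 ± 0.05 (SE, adjusted p = 0.00119) and 0.43 ± 0.06 (adjusted p = 0.000214) in AsPC-1 and fell by 0.55 ± 0.12 (adjusted p = 0.00945) in Capan-1. With the library labelled AsPC-1 siB3GNT3 replicate 3 kept, both AsPC-1 calls ended (adjusted p = 0.0581 and 0.168). CDC25C, a phosphatase of the same family, fell with siB4GALT5, from 7.39, 6.998 and 7.02 to 5.63, 5.73 and 5.29 (log2 difference -0.31 ± 0.06 SE, adjusted p = 0.00225). CCNA2, cyclin A, fell with siB3GNT3 in AsPC-1 by 0.16 ± 0.05 (adjusted p = 0.0369), a call that ended without siB3GNT3 replicate 2 (adjusted p = 0.137), and CCNB2, another B-type cyclin, was called in none.

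The transcription factor FOXM1 and the proliferation markers MKI67, TOP2A and PIMREG all fell with siB4GALT5, 3 of 4 fell with siB3GNT3 in AsPC-1 and 2 of 4 in Capan-1. Of all genes tested 23%, 20.4% and 14.2% fell, beside 100%, 75% and 50% here. FOXM1, which drives late cell cycle transcription, was at 39.2, 42.03 and 40.4 FPKM in AsPC-1 siNC, 22.5, 22.2 and 21.6 with siB4GALT5 and 31.8 and 32.03 with siB3GNT3. Its 3 AsPC-1 groups did not overlap, and the differences from siNC were -0.85 ± 0.05 (SE, adjusted p = 1.3e-06) and -0.34 ± 0.05 (SE, adjusted p = 0.00074). In Capan-1 FOXM1 was at 28.3, 30.2 and 25.4 with siNC and 26.4, 27.6 and 27.1 with siB3GNT3, overlapping (adjusted p = 0.68). TOP2A, the topoisomerase that untangles chromosomes for mitosis, was at 75.8, 73.6 and 79.04 in AsPC-1 siNC, 44.7, 39.8 and 47.4 with siB4GALT5 and 56.9 and 51.1 with siB3GNT3. It fell by 0.78 ± 0.07 and 0.49 ± 0.08 (adjusted p = 1.93e-05 and 0.000784). In Capan-1 TOP2A was at 163, 167 and 164 with siNC and 128, 159 and 154 with siB3GNT3, apart but not past the test (adjusted p = 0.163).

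PIMREG, a mitotic regulator of low level (chromosome 17, 6444415 to 6451469, plus strand, GRCh38), had the lowest log2 difference of all 46 genes with siB3GNT3 in AsPC-1. Its FPKM were 5.29, 5.18 and 6.24 in AsPC-1 siNC, 3.04, 3.01 and 3.59 with siB4GALT5 and 0.875 and 1.2 with siB3GNT3. In Capan-1 they were 10.1, 8.68 and 8.69 with siNC and 4.9, 6.14 and 4.09 with siB3GNT3. All groups stood apart from their siNC, and the differences were -0.64 ± 0.10 (SE, adjusted p = 0.000437), -1.69 ± 0.11 (SE, adjusted p = 4.33e-06) and -0.76 ± 0.13 (SE, adjusted p = 0.00369). On this scale, with 1 added to each FPKM, the change of so low a gene is understated. The library values of MKI67, the Ki-67 antigen, and of CDC25C, BIRC5, BUB1, ESPL1, CENPE, CENPA, HMMR, NUSAP1, ECT2 and AURKB fall outside the rule by which genes were named and were chosen after the values were seen. MKI67 was at 41.96, 41.9 and 40.2 in AsPC-1 siNC and at 18.1, 13.5 and 29.1 with siB4GALT5, where replicate 3 was well above the other two. The difference was -1.07 ± 0.21 (SE, adjusted p = 0.00181). With siB3GNT3 in AsPC-1 MKI67 was at 29.6 and 28.3, below all siNC libraries but short of the threshold (adjusted p = 0.0953). In Capan-1 it was at 64.5, 68.9 and 65.5 with siNC and 31.6, 36.9 and 45.6 with siB3GNT3 (log2 difference -0.80 ± 0.12 SE, adjusted p = 0.00227).

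**Figure D2:**
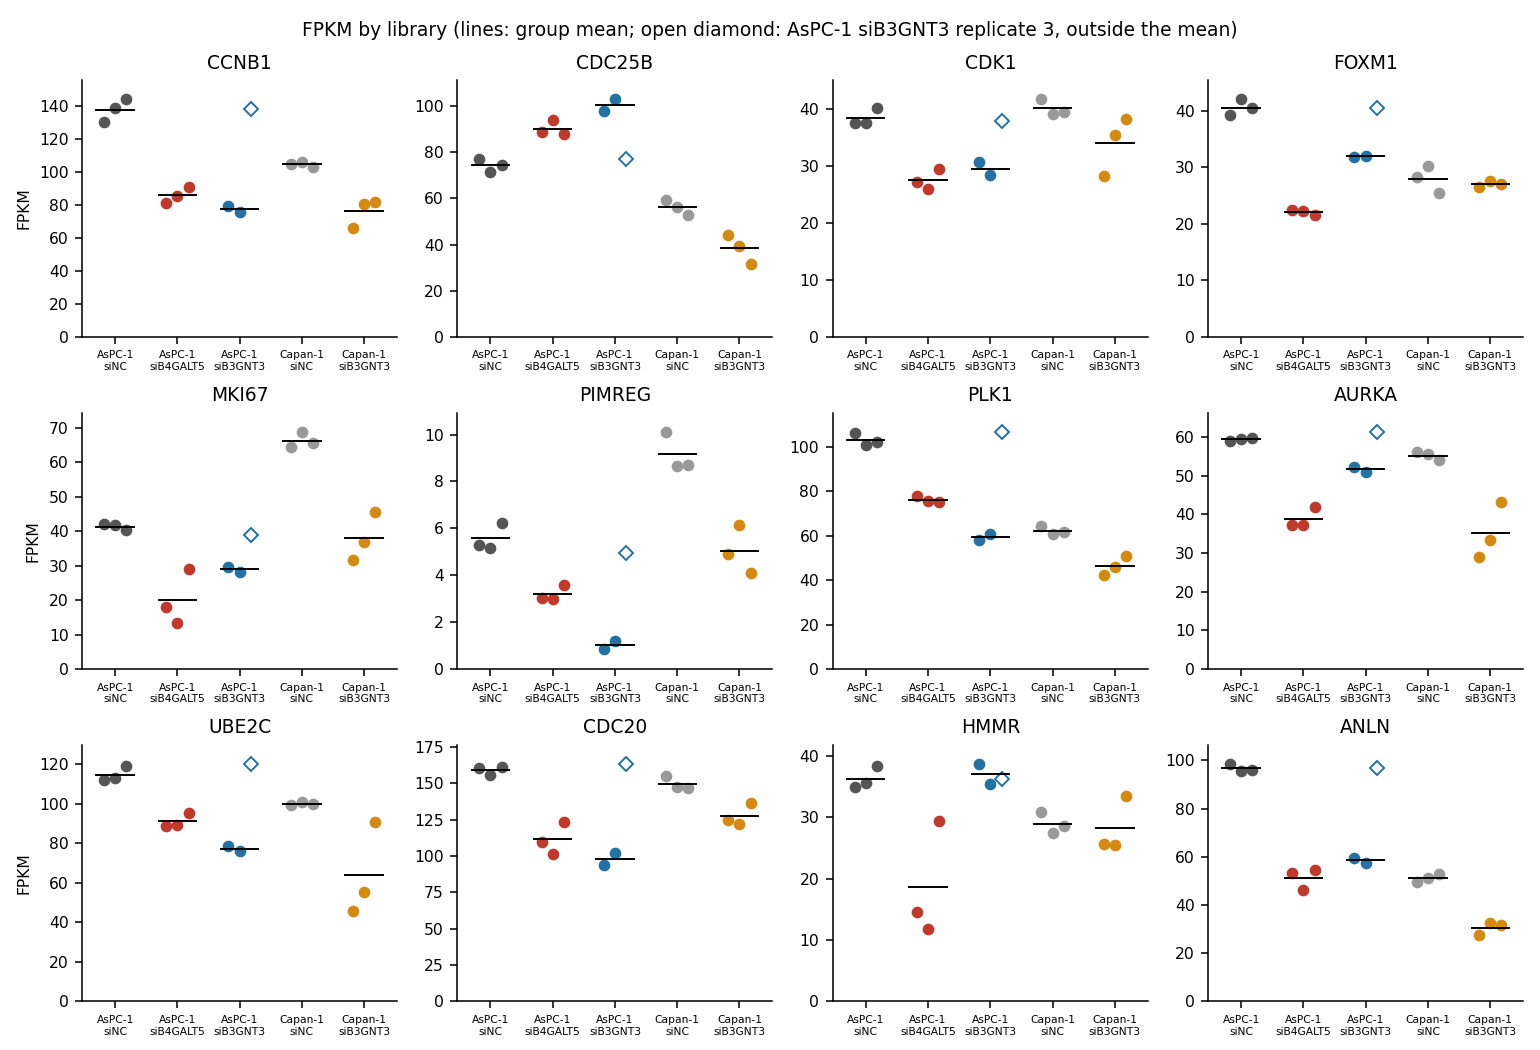
FPKM of 12 of the genes in every library, by group, on linear axes from 0; lines are group means and the open diamond is the library labelled AsPC-1 siB3GNT3 replicate 3. CCNB1, PLK1 and ANLN are lower in all knockdown libraries that enter the means, the open diamond sits beside siNC, and HMMR is far below siNC in siB4GALT5 replicates 1 and 2 and nearer to it in replicate 3.

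Of 5 mitotic kinases and partners 4 fell with siB4GALT5, 3 with siB3GNT3 in AsPC-1 and 3 in Capan-1, and AURKB, the kinase of the chromosomal passenger complex, was called in none. Shares lower were 80%, 60% and 60%, against 23%, 20.4% and 14.2% of all genes tested. PLK1 was at 106, 101 and 102 FPKM in AsPC-1 siNC, 77.98, 75.4 and 75.3 with siB4GALT5 and 58.1 and 60.95 with siB3GNT3. In Capan-1 PLK1 was at 64.4, 60.8 and 61.8 with siNC and 42.3, 46.04 and 50.7 with siB3GNT3. No knockdown library reached a siNC library, and the differences were -0.43 ± 0.04 (SE, adjusted p = 4.43e-05), -0.78 ± 0.05 (SE, adjusted p = 4.33e-06) and -0.42 ± 0.08 (SE, adjusted p = 0.00545). AURKA, the kinase of the spindle poles, was at 59.03, 59.5 and 59.8 in AsPC-1 siNC, 37.3, 37.3 and 42.02 with siB4GALT5 and 52.3 and 51 with siB3GNT3. In Capan-1 AURKA was at 56.05, 55.6 and 54.1 with siNC and 29.1, 33.4 and 43.1 with siB3GNT3. It fell by 0.60 ± 0.06 with siB4GALT5 and by 0.65 ± 0.13 in Capan-1 (adjusted p = 2.06e-05 and 0.00672). The AURKA difference with siB3GNT3 in AsPC-1 was -0.20 ± 0.06 (SE, adjusted p = 0.0228). The call ended without any 1 siNC library (adjusted p = 0.0529 to 0.0597) and with the replicate block (0.0563). It also ended without siB3GNT3 replicate 1 or 2, which leaves 1 library (log2 differences -0.218 and -0.182).

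TPX2, which activates AURKA on spindle microtubules, was at 129.9, 127 and 130.2 FPKM in AsPC-1 siNC, 98.8, 97.9 and 114 with siB4GALT5 and 104 and 104 with siB3GNT3. In Capan-1 TPX2 was at 100.4, 102 and 103 with siNC and 77.3, 91.2 and 86.97 with siB3GNT3. It fell by 0.32, 0.30 and 0.26 (adjusted p = 0.00153, 0.00422 and 0.0278), with groups apart each time. The last call ended without any 1 Capan-1 siNC library (adjusted p = 0.0841 to 0.103), without siB3GNT3 replicate 1 (0.0556) and without a filter (0.0631). BIRC5, survivin, fell with siB4GALT5 by 0.40 ± 0.13 (adjusted p = 0.0223), with libraries at 24.8, 26.3 and 37.6 against 38.6, 37.7 and 39.8 in siNC. Replicate 3 of siB4GALT5 lay just under the lowest siNC library, and without siB4GALT5 replicate 1 the call ended (adjusted p = 0.0795).

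The spindle checkpoint genes split in AsPC-1, where BUB3 and MAD2L1 fell with both siRNAs while BUB1 and BUB1B were not called. With siB3GNT3 in Capan-1 0 of 5 were called by limma, and 2 were lower at an unadjusted p under 0.05. By limma 60% fell with siB4GALT5 and 40% with siB3GNT3 in AsPC-1, against 23% and 20.4% of all genes tested, and 14.2% in Capan-1. BUB3, a subunit of the checkpoint complex, was at 22.5, 22.6 and 23.97 FPKM in AsPC-1 siNC, 18.04, 17.7 and 17.9 with siB4GALT5 and 16.8 and 16.98 with siB3GNT3. It fell by 0.35 ± 0.05 and 0.42 ± 0.06 (adjusted p = 0.000307 and 0.000224). In Capan-1 BUB3 was at 23.9, 24.1 and 25.5 with siNC and 22.8, 23.3 and 23.1 with siB3GNT3 (adjusted p = 0.343). MAD2L1, the inhibitor that binds CDC20, was at 20.1, 18.5 and 19.6 in AsPC-1 siNC, 14.9, 13.9 and 16.5 with siB4GALT5 and 14.1 and 14.1 with siB3GNT3. Its differences were -0.34 ± 0.07 (SE, adjusted p = 0.00207) and -0.43 ± 0.08 (SE, adjusted p = 0.00122), against Capan-1 values of 15, 14.5 and 14.5 with siNC and 13.1, 14.4 and 14.3 with siB3GNT3 (adjusted p = 0.434). TTK, the kinase that recruits the checkpoint, fell with siB4GALT5 from 8.58, 7.29 and 8.41 to 6.74, 6.09 and 6.9 (log2 difference -0.26 ± 0.08 SE, adjusted p = 0.0155), a call that ended without siNC replicate 1 (adjusted p = 0.063). In Capan-1 TTK was at 10.99, 10.4 and 9.9 with siNC and 8.58, 8.93 and 9.35 with siB3GNT3 (adjusted p = 0.0631). BUB1 was at 24.4, 24.3 and 26.03 in AsPC-1 siNC and 27.4, 24.6 and 24.7 with siB4GALT5, and the groups overlapped.

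The genes around the anaphase-promoting complex fell together in AsPC-1, 3 of 4 with each siRNA, and 2 of 4 fell in Capan-1. These are 75%, 75% and 50%, against 23%, 20.4% and 14.2% of all genes tested. CDC20 was at 160.4, 156 and 161 FPKM in AsPC-1 siNC, 109.9, 101 and 124 with siB4GALT5 and 93.7 and 102 with siB3GNT3. In Capan-1 CDC20 was at 155, 148 and 147 with siNC and 125, 122 and 136 with siB3GNT3. It was lower without overlap in each comparison. The falls were 0.51 ± 0.07, 0.69 ± 0.08 and 0.23 ± 0.06 on the log2 scale (adjusted p = 0.000254, 9.87e-05 and 0.0261). The Capan-1 call ended on leaving out any 1 Capan-1 library but siB3GNT3 replicate 3 (adjusted p = 0.0591 to 0.109). It also ended without a filter (0.0517) and with the replicate block (0.0572). UBE2C, the ubiquitin-conjugating enzyme of the complex, was at 112, 113 and 119 in AsPC-1 siNC, 88.9, 89.3 and 95.2 with siB4GALT5 and 78.5 and 75.8 with siB3GNT3. It fell in AsPC-1 by 0.33 ± 0.05 and 0.56 ± 0.05 (adjusted p = 0.000356 and 3.46e-05). The Capan-1 siB3GNT3 libraries spread widely, at 45.8, 55.5 and 90.7 against 99.3, 101 and 99.8 with siNC. Their difference was -0.70 ± 0.21 (SE, adjusted p = 0.0342). The call ended on leaving out any 1 Capan-1 library but siB3GNT3 replicate 3 (adjusted p = 0.0794 to 0.11) and without a filter (0.13).

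PTTG1, securin, was at 88.6, 89.2 and 91.4 FPKM in AsPC-1 siNC, 65.8, 71.2 and 72.7 with siB4GALT5 and 73.5 and 71.6 with siB3GNT3. It fell by 0.36 ± 0.05 and 0.30 ± 0.06 (adjusted p = 0.000255 and 0.00152). PTTG1 has near-identical retrocopies in the genome, so its level depends on how shared reads were assigned. In Capan-1 PTTG1 was at 67.6, 61.8 and 61.4 with siNC and 45.1, 48.7 and 63.7 with siB3GNT3, overlapping (adjusted p = 0.101). ESPL1, separase, which securin inhibits, was not called, and in Capan-1 its siB3GNT3 libraries held 4.42, 5.76 and 10.3 against 10.02, 11.03 and 10.1 in siNC. Replicates 1 and 2 of siB3GNT3 were low and replicate 3 lay within the siNC range.

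Of the kinetochore genes 2 of 5 fell with siB4GALT5, 1 with siB3GNT3 in AsPC-1 and 2 in Capan-1. These shares are 40%, 20% and 40%, against 23%, 20.4% and 14.2% of all genes tested. The share with siB3GNT3 in AsPC-1 is thus that of all genes. NUF2, a subunit of the NDC80 complex that binds microtubules, was at 28.1, 31.1 and 31.1 FPKM in AsPC-1 siNC, 21.4, 19.1 and 24.9 with siB4GALT5 and 24.5 and 21.7 with siB3GNT3. In Capan-1 NUF2 was at 21.8, 21.9 and 18.4 with siNC and 12.6, 14.4 and 17.7 with siB3GNT3. It fell by 0.45, 0.37 and 0.46 (adjusted p = 0.0025, 0.0146 and 0.0232). The last 2 calls ended without AsPC-1 siB3GNT3 replicate 2 (adjusted p = 0.127) and without Capan-1 siNC replicate 1 (0.0887). NDC80, its partner, fell with siB4GALT5 from 14.5, 15.6 and 16.8 to 12.4, 11.4 and 14.2 (log2 difference -0.28 ± 0.08 SE, adjusted p = 0.0157), a call lost without siNC replicate 3 (adjusted p = 0.0654). NDC80 was at 13.8 and 13.1 with siB3GNT3 in AsPC-1 and in Capan-1 at 9.81, 9.19 and 10.4 with siNC and 8.9, 9.36 and 8.83 with siB3GNT3, neither called. CENPF, a large outer kinetochore protein, was at 29.2, 29.5 and 27.8 with siNC and 18.4, 20.1 and 25.4 with siB3GNT3 in Capan-1. The log2 difference was -0.43 ± 0.11 (SE, adjusted p = 0.019). The call ended without siB3GNT3 replicate 2 or any 1 siNC library (adjusted p = 0.0538 to 0.0719) and without a filter (0.0692).

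In AsPC-1 CENPF scattered within groups, at 15.1, 21.9 and 23.4 with siNC, 12.2, 10.6 and 19.02 with siB4GALT5 and 22.97 and 15.2 with siB3GNT3, and was not called. CENPE, the kinetochore motor, scattered likewise, at 5.15, 6.67 and 10.3 with siNC and 2.52, 2.73 and 7.68 with siB4GALT5. CENPA, the centromeric histone, was at 8.67, 9.57 and 9.68 with siNC and 9.48, 9.57 and 10.5 with siB4GALT5, and overlapped in every comparison with a knockdown.

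Spindle motors and microtubule-binding proteins fell in 6 of 7 cases with siB4GALT5 and in 3 of 7 with siB3GNT3 in each line. In shares this is 85.7%, 42.9% and 42.9%, against 23%, 20.4% and 14.2% of all genes tested. DLGAP5 was at 20.04, 19.02 and 20.8 FPKM in AsPC-1 siNC, 13.7, 12.3 and 13.6 with siB4GALT5 and 14.1 and 12.7 with siB3GNT3. In Capan-1 DLGAP5 was at 45.2, 43.3 and 45.02 with siNC and 27.4, 34.1 and 37.1 with siB3GNT3. The groups stood apart, with differences of -0.56 ± 0.07 (SE, adjusted p = 9.36e-05), -0.54 ± 0.07 (SE, adjusted p = 0.000301) and -0.44 ± 0.11 (SE, adjusted p = 0.0158); the Capan-1 call ended without siNC replicate 1 (adjusted p = 0.0625). KIF2C, which depolymerises microtubules at kinetochores, was at 27.7, 27.8 and 29.9 in AsPC-1 siNC, 22.1, 21.9 and 24.6 with siB4GALT5 and 24.6 and 25.2 with siB3GNT3. In Capan-1 KIF2C was at 32.9, 29.9 and 30.2 with siNC and 14.2, 17.4 and 21.6 with siB3GNT3. It fell by 0.31 ± 0.06, 0.18 ± 0.07 and 0.79 ± 0.13 (adjusted p = 0.002, 0.0438 and 0.00389). The AsPC-1 siB3GNT3 call ended without any 1 siNC library (adjusted p = 0.0663 to 0.133), without a filter (0.0662) and with the replicate block (0.082). It also ended without replicate 1 or 2 of that group, which leaves 1 library (log2 differences -0.167 and -0.202).

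KIF11, the motor that pushes spindle poles apart, fell with siB4GALT5 from 22.8, 24.4 and 24.96 to 14.3, 13.9 and 18.9 FPKM (log2 difference -0.59 ± 0.11 SE, adjusted p = 0.00115). KIF11 was at 20.8 and 18.2 with siB3GNT3 in AsPC-1 (adjusted p = 0.0653) and in Capan-1 at 33.5, 33.6 and 31.6 with siNC and 27.3, 32.2 and 30.2 with siB3GNT3 (adjusted p = 0.199). HMMR, a receptor for hyaluronan that also binds spindle microtubules, was at 34.8, 35.5 and 38.3 in AsPC-1 siNC and 14.6, 11.7 and 29.3 with siB4GALT5. Replicates 1 and 2 of siB4GALT5 were far below siNC and replicate 3 was nearer to it, with a difference of -1.03 ± 0.25 (SE, adjusted p = 0.00663). With siB3GNT3 HMMR was at 38.7 and 35.4 in AsPC-1 (adjusted p = 0.935). ASPM, a spindle pole protein, and CKAP2, which binds microtubules, fell with siB4GALT5 by 0.65 and 0.43 (adjusted p = 0.0233 and 0.00288). CKAP2 also fell with siB3GNT3 in AsPC-1 by 0.44 (adjusted p = 0.00583) and ASPM in Capan-1 by 0.40 (adjusted p = 0.0313). The ASPM call with siB4GALT5 ended without siB4GALT5 replicate 1 or 2 or siNC replicate 2 or 3 (adjusted p = 0.0683 to 0.0813). It also ended without a filter (0.0998). The ASPM call in Capan-1 ended without siB3GNT3 replicate 2 or any 1 siNC library (adjusted p = 0.0691 to 0.103). It also ended without a filter (0.1). The CKAP2 call with siB3GNT3 ended without siB3GNT3 replicate 2, which leaves 1 library (log2 difference -0.375). NUSAP1, which bundles spindle microtubules, was at 36.6, 36.9 and 37.8 in AsPC-1 siNC and 34.5, 31.01 and 37.6 with siB4GALT5, overlapping.

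In the central spindle and cytokinesis group 5 of 6 fell with siB4GALT5, 3 with siB3GNT3 in AsPC-1 and 1, ANLN, in Capan-1. As shares these are 83.3%, 50% and 16.7%, against 23%, 20.4% and 14.2% of all genes tested. The Capan-1 share is near that of all genes. ANLN, the scaffold of the contractile ring, was at 98.6, 95.5 and 96.1 FPKM in AsPC-1 siNC, 53.3, 46.2 and 54.4 with siB4GALT5 and 59.4 and 57.5 with siB3GNT3. In Capan-1 ANLN was at 49.7, 51.4 and 52.97 with siNC and 27.5, 32.3 and 31.6 with siB3GNT3. Every knockdown library was far below every siNC library, and the differences were -0.91 ± 0.06 (SE, adjusted p = 3.96e-06), -0.72 ± 0.07 (SE, adjusted p = 4.27e-05) and -0.74 ± 0.08 (SE, adjusted p = 0.000492). KIF20A, a motor of the central spindle, was at 50.2, 49.7 and 52.1 in AsPC-1 siNC, 30.2, 28.9 and 33.3 with siB4GALT5 and 34.9 and 36.8 with siB3GNT3. Its differences were -0.70 ± 0.06 (SE, adjusted p = 1.28e-05) and -0.49 ± 0.07 (SE, adjusted p = 0.000293). In Capan-1 KIF20A was at 60.2, 58.1 and 57.2 with siNC and 41.4, 53.98 and 70.5 with siB3GNT3, on both sides of siNC (adjusted p = 0.618). PRC1, which bundles the central spindle, was at 78.6, 84.3 and 81.3 in AsPC-1 siNC, 63.7, 61.1 and 64.3 with siB4GALT5 and 84.1 and 78.8 with siB3GNT3. It fell with siB4GALT5 (log2 difference -0.36 ± 0.05 SE, adjusted p = 0.000224) and overlapped siNC with siB3GNT3 (adjusted p = 0.991), and in Capan-1 the values were 86.4, 92.5 and 86.6 with siNC and 72.1, 83.8 and 85.1 with siB3GNT3 (adjusted p = 0.195). KIF23, another central spindle motor, fell with siB4GALT5 by 0.48 and with siB3GNT3 in AsPC-1 by 0.49 (adjusted p = 0.00595 and 0.011), the latter not without siB3GNT3 replicate 2 (0.0829), and KIF4A, which limits the growth of central spindle microtubules, fell with siB4GALT5 by 0.43 (adjusted p = 0.00103). ECT2, the exchange factor that starts furrowing, was at 32.9, 34.3 and 34.2 in AsPC-1 siNC and above that in each siB4GALT5 library, at 37.3, 35.1 and 43.1, short of the threshold (adjusted p = 0.0711).

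Of the 4 condensin genes 3 fell with siB4GALT5, 2 with siB3GNT3 in AsPC-1 and 3 in Capan-1. The shares lower were 75%, 50% and 75%, against 23%, 20.4% and 14.2% of all genes tested. NCAPG, a subunit of condensin I, was at 25.6, 26.3 and 27.97 FPKM in AsPC-1 siNC, 20.3, 18.5 and 21.04 with siB4GALT5 and 22.2 and 21.1 with siB3GNT3. In Capan-1 NCAPG was at 20.9, 21.03 and 20.2 with siNC and 16.2, 18.02 and 17.5 with siB3GNT3. Its groups did not overlap and it fell by 0.40, 0.29 and 0.25 (adjusted p = 0.000534, 0.00721 and 0.0221). The last 2 calls ended without AsPC-1 siB3GNT3 replicate 2 (0.0648) and without Capan-1 siNC replicate 2 (0.0916). SMC2, the core ATPase of condensin, was at 8.84, 9.38 and 10.8 in AsPC-1 siNC, 7.38, 5.87 and 9.25 with siB4GALT5 and 6.43 and 5.52 with siB3GNT3. It was called with siB3GNT3, at -0.61 ± 0.15 (SE, adjusted p = 0.00786) in AsPC-1 and -0.34 ± 0.08 (SE, adjusted p = 0.0131) in Capan-1, where it was at 6.86, 6.42 and 6.46 with siNC and 4.79, 5.45 and 4.79 with siB3GNT3. These calls ended without AsPC-1 siB3GNT3 replicate 2 (adjusted p = 0.0722) and Capan-1 siNC replicate 1 (0.0626). NCAPH, the kleisin of condensin I, was at 8.15, 7.99 and 8.57 in AsPC-1 siNC, 7.3, 5.83 and 7.07 with siB4GALT5 and 6.56 and 7.22 with siB3GNT3. It fell with siB4GALT5 (log2 difference -0.26 ± 0.08 SE, adjusted p = 0.0222) and in Capan-1 from 9.68, 10.5 and 9.42 to 7.41, 8.08 and 8.24 (log2 difference -0.29 ± 0.08 SE, adjusted p = 0.0217), but not without AsPC-1 siNC replicate 3 (adjusted p = 0.0763) or Capan-1 siNC replicate 2 (0.0991). SMC4, the partner of SMC2, fell with siB4GALT5 by 0.47 (adjusted p = 0.0176), where groups overlapped and the call ended without siNC replicate 3 (0.0628).

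Within some groups most of the 46 genes were highest, or lowest, in the same library. Within siB4GALT5 replicate 3 was the highest of the 3 libraries for 37 of 46 genes and replicate 2 the lowest for 33, and the median difference of the 46 from the siNC mean was -0.42, -0.50 and -0.22 in replicates 1, 2 and 3. Within Capan-1 siB3GNT3 replicate 1 was the lowest for 38 genes and replicate 3 the highest for 31, with medians of -0.38, -0.18 and -0.11. Medians of AsPC-1 siB3GNT3 replicates 1 and 2 were -0.25 and -0.33, and that of the library labelled replicate 3 was -0.0133. Among the controls, AsPC-1 siNC replicate 3 was the highest for 31 genes. These ranks were not counted over all genes. Over all genes past an FPKM filter, siB4GALT5 replicate 3 lay apart too. It differed from replicates 1 and 2 by a root mean square of 0.242 and 0.261, and those from each other by 0.151. Over the same genes Capan-1 siB3GNT3 replicate 3 differed from replicates 1 and 2 by 0.312 and 0.271, and those from each other by 0.180. The mean log2(FPKM + 1) over the 46 genes was 5.03 ± 0.048 (SD, n = 3) in AsPC-1 siNC, 4.63 ± 0.149 (n = 3) with siB4GALT5 and 4.71 ± 0.056 (n = 2) with siB3GNT3. In Capan-1 it was 5.01 ± 0.033 (n = 3) with siNC and 4.72 ± 0.149 (n = 3) with siB3GNT3. All knockdown libraries kept were below all siNC libraries of their line on this mean.

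**Figure D3:**
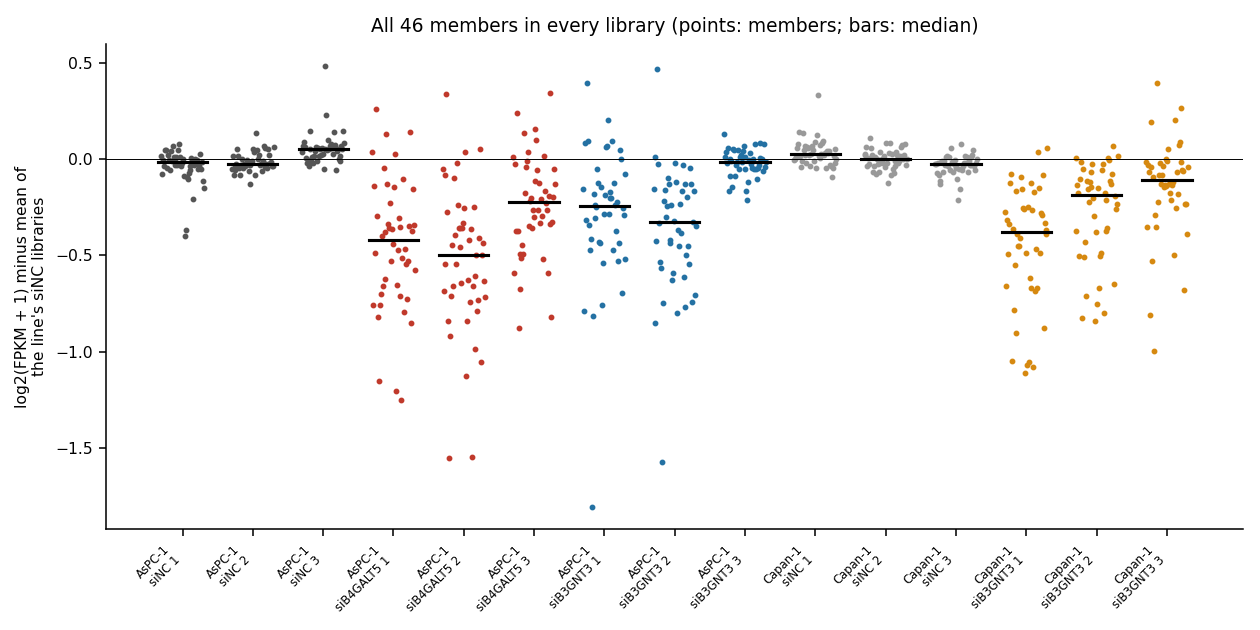
Each of the 46 genes in each of the 15 libraries, as log2(FPKM + 1) minus the mean of the siNC libraries of the line; bars are medians. The medians of siB4GALT5 run from -0.50 to -0.22 and those of Capan-1 siB3GNT3 from -0.38 to -0.11, and the library labelled AsPC-1 siB3GNT3 replicate 3 has its median at -0.0133.

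Members with long transcripts differed more between some libraries of a group than the shorter ones. Over the 46 genes the Spearman correlation of length with the difference from siNC was weak. It was -0.244 with siB4GALT5, -0.014 with siB3GNT3 in AsPC-1 and 0.007 with siB3GNT3 in Capan-1. For the 10 genes whose longest coding transcript in GENCODE 29 is over 5000 bases the median difference from siNC was -0.613, -0.776 and -0.147 in siB4GALT5 replicates 1, 2 and 3, and for the 36 shorter genes -0.389, -0.44 and -0.262. The long genes were thus the lower ones in replicates 1 and 2 but not in replicate 3. In Capan-1 siB3GNT3 the medians of long and short genes were -0.504 and -0.351 in replicate 1 and -0.112 and -0.101 in replicate 3. Over all genes with a length, with siB4GALT5, the median was 0.108 for long ones and 0.041 for the others. The part of length in the results was not tested. Another limit is that 10 members (ANLN, CCNA2, CDC25C, CENPA, FOXM1, KIF20A, KIF4A, NCAPG, PIMREG and SMC4) overlap another expressed coding gene in GENCODE 29. No source used here says whether counting used strand, so reads from genes that overlap on opposite strands may be mixed.

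The question of whether the 2 siRNAs in AsPC-1 differed in these genes was tested directly, and 10 of 46 did. With siB4GALT5 against siB3GNT3 7 genes (15.2%) were lower and 3 (6.52%) higher, against a background of 17.4% lower and 17.8% higher. Both shares were below those of all genes tested, so these genes did not differ more often than others. FOXM1, AURKA, PRC1, CDC25C, TOP2A, KIF20A and HMMR were lower with siB4GALT5. The differences were -0.51 ± 0.05 (SE, adjusted p = 0.000139) for FOXM1, -0.40 ± 0.06 (SE, adjusted p = 0.00113) for AURKA and -0.36 ± 0.06 (SE, adjusted p = 0.00103) for PRC1. HMMR had the widest gap, -1.06 ± 0.28 (SE, adjusted p = 0.0177), and its call ended without siB3GNT3 replicate 1 (adjusted p = 0.104). CDC25C, TOP2A and KIF20A differed by -0.35, -0.29 and -0.21 and lost their calls without siB3GNT3 replicate 1 (adjusted p = 0.0584 and 0.166) or, for KIF20A, replicate 2 (0.2). PIMREG, PLK1 and UBE2C were lower with siB3GNT3, which makes the difference positive: 1.05 ± 0.11 (SE, adjusted p = 0.000122), 0.35 ± 0.05 (SE, adjusted p = 0.000727) and 0.24 ± 0.05 (SE, adjusted p = 0.00847), the last not called without siB3GNT3 replicate 2 (0.0731). CCNB1 (80.8, 85.2 and 91.04 against 79.03 and 75.8 FPKM) and ANLN (53.3, 46.2 and 54.4 against 59.4 and 57.5) did not overlap but were not called (adjusted p = 0.118 and 0.0669). The siNC libraries enter this test only through the spread. The 7 lower became 3 without siB3GNT3 replicate 1 and 16 without siB4GALT5 replicate 3, and the 3 higher became 8 without siB4GALT5 replicate 2 and 5 without siB4GALT5 replicate 3.

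Whether siB3GNT3 acted on these genes to the same degree in both lines was tested as an interaction over 14 libraries, and 11 of 46 genes differed. In 8 (17.4%) the response was lower in AsPC-1 than in Capan-1 and in 3 (6.52%) it was higher. Of 12236 genes 13.8% and 19% did so (1690 and 2319 genes, or 2233 and 1851 after median-ratio scaling). The share lower was thus near that of all genes and the share higher below it. PIMREG fell in both lines and by more in AsPC-1, with a difference between responses of -0.93 ± 0.18 (SE, adjusted p = 0.00152). CDC20, PLK1 and CCNB1 also fell in both and further in AsPC-1, with differences of -0.46, -0.36 and -0.36 (adjusted p = 0.0043, 0.00928 and 0.0267). CKAP2, MAD2L1, BUB3 and FOXM1, called lower in AsPC-1 and not called in Capan-1, differed by -0.47, -0.36, -0.35 and -0.29 (adjusted p = 0.0101, 0.0129, 0.00354 and 0.0253). In the other direction stood CDC25B with 0.98 ± 0.14 (SE, adjusted p = 0.000184), KIF2C with 0.61 ± 0.16 (SE, adjusted p = 0.0118) and AURKA with 0.45 ± 0.15 (SE, adjusted p = 0.0363). KIF2C and AURKA fell in both lines and further in Capan-1. For ANLN the difference between responses was 0.02 ± 0.11 (adjusted p = 0.913). The calls of CCNB1, CKAP2, FOXM1 and AURKA each ended without 1 library, with adjusted p of 0.102 and 0.0585 without AsPC-1 siB3GNT3 replicate 2 and of 0.0799 and 0.106 without replicate 1. The 8 lower became 5 without AsPC-1 siB3GNT3 replicate 2, the 3 higher became 6 without Capan-1 siB3GNT3 replicate 3, and with the library labelled AsPC-1 siB3GNT3 replicate 3 kept 0 were lower by limma (1 at an unadjusted p under 0.05).

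**Figure D4:**
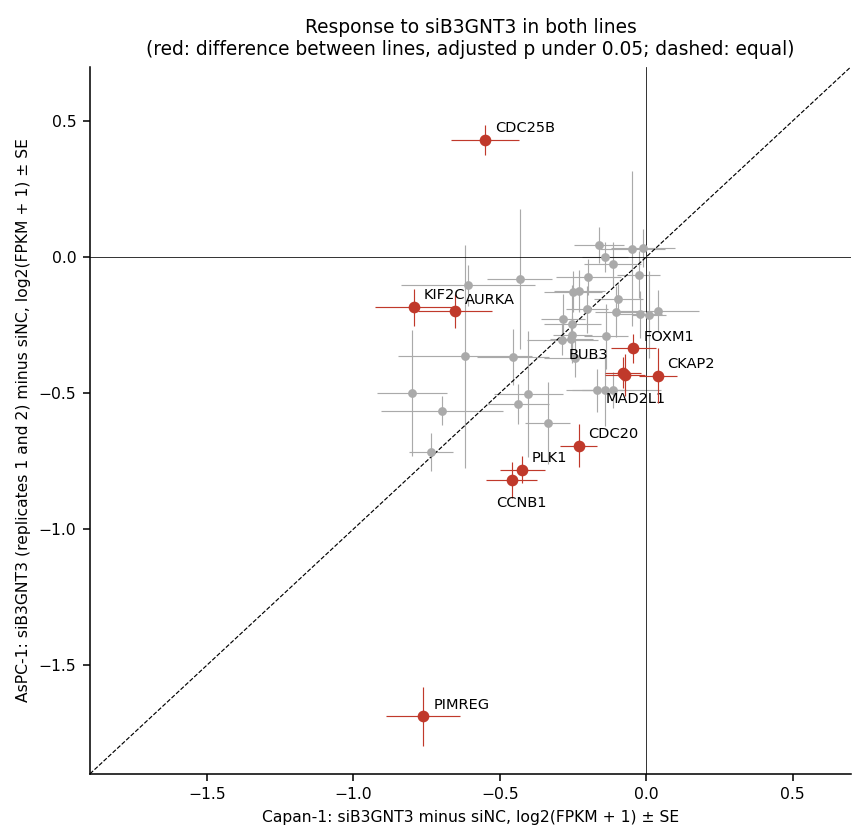
The response of each of the 46 genes to siB3GNT3 in Capan-1 (horizontal) and AsPC-1 (vertical), as log2(FPKM + 1) differences with SE; the dashed line marks equal responses and red points differed between lines in the interaction test. PIMREG and 7 others lie below the line, and CDC25B, KIF2C and AURKA above it.

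With control siRNA the lines already differed in 38 of the 46 genes, 17 lower (37%) and 21 higher (45.7%) in AsPC-1. The background was 47% lower and 37.9% higher of 11656 genes. The median difference of the 46 was 0.066, beside -0.087 over all genes tested. By role the direction varied. Of FOXM1 and the proliferation markers 3 were lower and 1 higher in AsPC-1. Central spindle genes and spindle motors each had 4 lower and 2 higher, and checkpoint genes 2 lower and 1 higher. Kinetochore and condensin genes each had 2 lower and 2 higher, and the cyclin group 0 lower and 3 higher. All 4 genes around the anaphase-promoting complex and 4 of 5 mitotic kinases and partners were higher. The calls of CDC20 and AURKA, however, ended without Capan-1 siNC replicate 3 (adjusted p = 0.13 and 0.0615). That of CDC20 also ended without AsPC-1 siNC replicates 1 or 3 or Capan-1 siNC replicate 2 (0.103, 0.101 and 0.118). In the fit over all 14 libraries CDC20, UBE2C, ESPL1 and AURKA were not called (adjusted p = 0.277, 0.292, 0.263 and 0.363), and of the 46 genes 14 were lower and 15 higher. AURKB was at 37.8, 34.9 and 35.5 FPKM in AsPC-1 and 16.4, 14.7 and 15.7 in Capan-1 (log2 difference 1.16 ± 0.05 SE, adjusted p = 9.55e-09). ANLN was at 98.6, 95.5 and 96.1 against 49.7, 51.4 and 52.97 (log2 difference 0.90 ± 0.04 SE, adjusted p = 5.05e-09) and PLK1 at 106, 101 and 102 against 64.4, 60.8 and 61.8 (log2 difference 0.72 ± 0.04 SE, adjusted p = 3.39e-08). Lower in AsPC-1 were DLGAP5, at 20.04, 19.02 and 20.8 against 45.2, 43.3 and 45.02 (log2 difference -1.12 ± 0.04 SE, adjusted p = 4e-09), and TOP2A, at 75.8, 73.6 and 79.04 against 163, 167 and 164 (log2 difference -1.10 ± 0.04 SE, adjusted p = 1.06e-09). MKI67 was also lower there, at 41.96, 41.9 and 40.2 against 64.5, 68.9 and 65.5, while CCNB1 was higher, at 130.0, 139 and 144 against 104, 106 and 103. CDK1 did not differ beyond the threshold (adjusted p = 0.207). In order of level, CDC20, CCNB1, TPX2 and UBE2C were the highest 4 members in AsPC-1 siNC, with means of 159.0 to 114.6 FPKM, and TOP2A, CDC20, CCNB1 and TPX2 in Capan-1, with 164.6 to 101.6. PIMREG was the lowest in AsPC-1 (5.57 ± 0.581, SD, n = 3) and SMC2 in Capan-1 (6.58 ± 0.239).

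**Figure D5:**
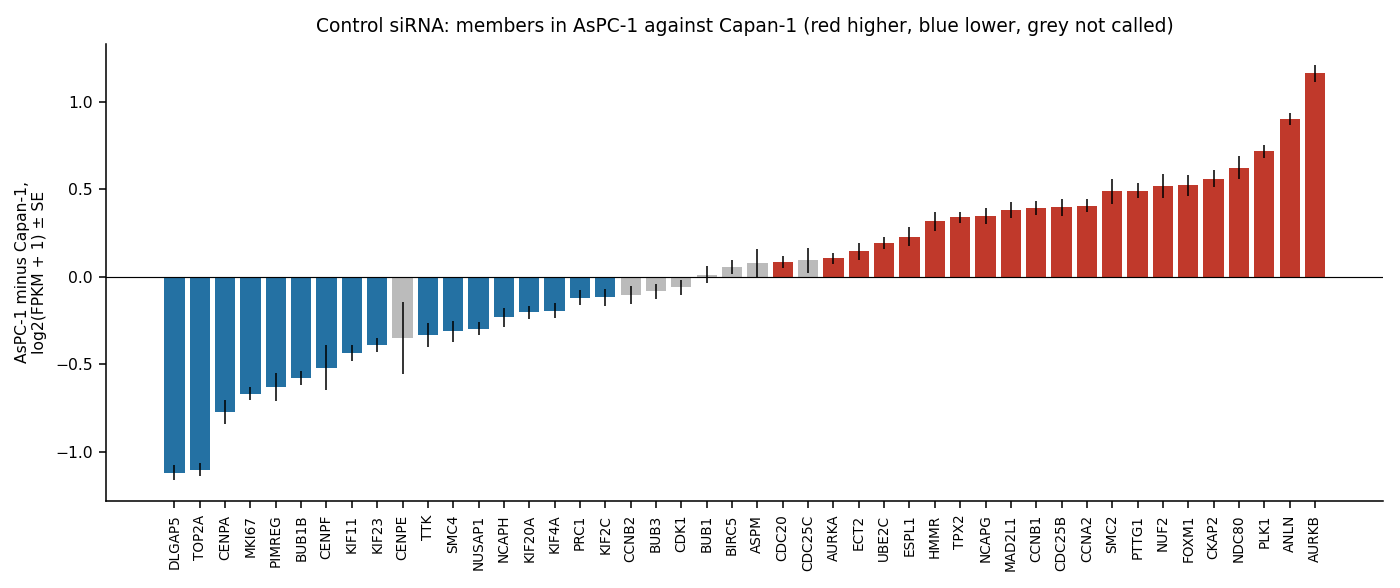
Difference between AsPC-1 and Capan-1 with control siRNA for each of the 46 genes, in log2(FPKM + 1) with SE, ordered by size; red and blue bars passed the adjusted p of 0.05. DLGAP5 and TOP2A are the lowest in AsPC-1 and ANLN and AURKB the highest.

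Genes of the same pathway that are not among the 46 were counted from lists written for comparison. These lists, here and below, were chosen with earlier results of these data known, so their counts are no independent support. Of 48 other mitotic genes 33 fell and 2 rose with siB4GALT5, 29 fell and 1 rose with siB3GNT3 in AsPC-1, and 16 fell and 1 rose in Capan-1, with medians of -0.381, -0.321 and -0.179. The shares that fell were 68.8%, 60.4% and 33.3%, against 23%, 20.4% and 14.2% of all genes tested, and those that rose 4.17%, 2.08% and 2.08%, against 35.2%, 32.5% and 18.7%. FAM83D, which brings a kinase to the spindle, was at 45.9, 44.1 and 45.01 FPKM in AsPC-1 siNC, 23.5, 22.5 and 24.7 with siB4GALT5 and 26.9 and 26.6 with siB3GNT3, a fall of 0.91 and 0.73 (adjusted p = 1.23e-06 and 1.09e-05). NEK2, a centrosomal kinase, fell with siB4GALT5 from 21.4, 20.5 and 21.8 to 11.3, 11.98 and 12.4 (log2 difference -0.79 ± 0.06 SE, adjusted p = 3.88e-06) and was at 21.99 and 21.5 with siB3GNT3 (adjusted p = 0.662). The 2 siRNAs differed there by -0.82 ± 0.06 (SE, adjusted p = 1.77e-05). CENPK, of the inner kinetochore, fell by more with siB3GNT3, with -0.27 for siB4GALT5 and -0.94 for siB3GNT3 (adjusted p = 0.00642 and 1.07e-05; difference 0.67, adjusted p = 0.000162).

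Inhibitors of cyclin-dependent kinases and genes of G2 arrest were counted likewise, and 11 of 17 rose with siB4GALT5 (64.7%, against 35.2% of all genes), 7 of 17 with siB3GNT3 in AsPC-1 (41.2% against 32.5%) and 5 of 16 in Capan-1 (31.2% against 18.7%). With 1, 2 and 2 genes, 5.88%, 11.8% and 12.5% fell, against 23%, 20.4% and 14.2% of all genes. CDKN2B, the inhibitor p15 of the G1 kinases, was at 2.89, 3.04 and 3.19 FPKM in AsPC-1 siNC, 9.7, 11.2 and 9.2 with siB4GALT5 and 14.04 and 14.2 with siB3GNT3. It rose by 1.45 ± 0.08 and 1.90 ± 0.09 (adjusted p = 8.63e-07 and 7.22e-07), while in Capan-1 it was at 6.22, 6.72 and 6.59 with siNC and 12.2, 8.78 and 7.25 with siB3GNT3 (adjusted p = 0.056). CDKN1A, the inhibitor p21 that acts through DREAM on these promoters, was at 23.6, 21.02 and 22.01 in AsPC-1 siNC, 41.98, 44.4 and 47.3 with siB4GALT5 and 27.5 and 28.5 with siB3GNT3. The rise was 0.97 ± 0.06 (SE, adjusted p = 2.42e-06) and 0.32 ± 0.07 (SE, adjusted p = 0.0038), and in Capan-1 CDKN1A was at 12.3, 13.6 and 13.7 with siNC and 14.2, 12.4 and 10.6 with siB3GNT3, overlapping. BTG2, an antiproliferative gene, rose in AsPC-1 by 1.06 and 1.10 (adjusted p = 7.71e-06 and 1.64e-05) and fell in Capan-1 by 0.61 (adjusted p = 0.0062).

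Genes upstream, B-MYB, the MuvB and DREAM subunits, RB proteins and E2F factors, were 22, of which 5 rose and 3 fell with siB4GALT5, 5 rose and 5 fell with siB3GNT3 in AsPC-1, and 6 rose and 2 fell in Capan-1. Shares higher were 22.7%, 22.7% and 27.3% (all genes 35.2%, 32.5% and 18.7%) and shares lower 13.6%, 22.7% and 9.09% (all genes 23%, 20.4% and 14.2%). LIN37, a MuvB subunit needed for DREAM repression, was at 3.63, 4.37 and 3.14 FPKM in AsPC-1 siNC, 8.44, 11.6 and 7.65 with siB4GALT5 and 9.04 and 8.11 with siB3GNT3, and in Capan-1 at 3.62, 4.03 and 4.18 with siNC and 5.97, 5.72 and 5.74 with siB3GNT3. It rose by 1.11, 1.03 and 0.46 (adjusted p = 0.000153, 0.000577 and 0.00353), without overlap. RB1, the retinoblastoma protein, was at 12.04, 11.7 and 11.7 in AsPC-1 siNC, 14.4, 13.3 and 15.04 with siB4GALT5 and 6.39 and 5.82 with siB3GNT3. It rose with the first (log2 difference 0.25 ± 0.06 SE, adjusted p = 0.00809) and fell with the second (log2 difference -0.85 ± 0.07 SE, adjusted p = 1.52e-05).

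Of the G1 cyclins and their kinases 5 of 8 fell and 2 rose with siB4GALT5, 7 of 8 fell and 1 rose with siB3GNT3 in AsPC-1, and 2 of 9 fell and 2 rose in Capan-1. The shares lower were 62.5%, 87.5% and 22.2% and those higher 25%, 12.5% and 22.2%, beside the all-gene shares just given. CDK6 rose in each, with log2 differences of 1.35, 0.55 and 0.84 (adjusted p = 1.66e-05, 0.00708 and 0.000682). CCND1, cyclin D1, fell in AsPC-1 from 376, 339 and 355 FPKM to 191, 175 and 225 with siB4GALT5 and 224 and 230.4 with siB3GNT3, and CDK2 fell by 0.40, 0.75 and 0.35 (adjusted p = 0.00107, 6.04e-05 and 0.0127). CDK6 lost its call for siB3GNT3 in AsPC-1 without siB3GNT3 replicate 2 (adjusted p = 0.0597) and CDK2 in Capan-1 without siNC replicate 2 (0.0606). The 16 core subunits of the anaphase-promoting complex were counted as well: 4, 3 and 2 fell (25%, 18.8% and 12.5%) and 3, 4 and 1 rose (18.8%, 25% and 6.25%), shares near or below those of all genes. CDC27 fell with siB3GNT3 in AsPC-1 from 15.9, 16.5 and 15.4 to 5.03 and 5.55 (log2 difference -1.43 ± 0.09 SE, adjusted p = 3.31e-06), with siB4GALT5 by 0.44, and in Capan-1 was at 35.9, 35.7 and 36.96 with siNC and 37.7, 43.05 and 21.8 with siB3GNT3. CDC23, which overlaps KIF20A at its end, fell with siB4GALT5 by 0.68 (adjusted p = 2.05e-05) and CDC16 rose in AsPC-1 by 0.25 and 0.42 (adjusted p = 0.00624 and 0.000693). Among 13 other condensin and cohesin subunits 4, 5 and 3 fell (30.8%, 38.5% and 23.1%) and 1, STAG2, rose each time (7.69%), by 1.05, 0.97 and 0.41 (adjusted p = 2.33e-06, 9.67e-06 and 0.00701). NCAPD3 of condensin II fell in AsPC-1 by 0.69 and 1.32 (adjusted p = 0.000922 and 4.66e-05), and SMC1A of cohesin fell in Capan-1 by 0.68 (adjusted p = 0.00112).

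With siB4GALT5 KRT8 and KRT19 fell and KRT18, MUC1 and EPCAM rose, as they did with siB3GNT3 in AsPC-1, and CDH1 was too low to test there. In Capan-1 KRT8, KRT18, KRT19 and EPCAM fell and CDH1 rose. With siB3GNT3 the AsPC-1 calls of EPCAM and MUC1 ended without replicate 1 (adjusted p = 0.066) and replicate 2 (0.0815) of that group, and the Capan-1 calls of EPCAM and KRT8 without siNC replicate 3 (0.148 and 0.0673). The call of KRT18 with siB3GNT3 in AsPC-1 ended under median-ratio scaling and with siB3GNT3 replicate 3 kept (0.0887 and 0.217). With that library kept, the AsPC-1 siB3GNT3 calls of KRT8, KRT19, EPCAM and MUC1 ended too, since no gene was called. KRT19 was at 635, 685 and 656 FPKM in AsPC-1 siNC, 471, 471 and 481 with siB4GALT5 and 354 and 346 with siB3GNT3. Of the markers of other cells 1 of 10 could be tested in AsPC-1, LUM, which was not called, and 4 in Capan-1, where COL1A1 and CD14 rose by 0.59 and 0.60 and LUM fell by 0.63 (adjusted p = 0.000833, 0.00339 and 0.000736).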

How the data were processed

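Values were FPKM per gene from 15 RNA libraries of cultured cells, in 1 table of 25503 genes deposited by the authors. Bowtie2, RSEM 1.3.1, DESeq2 1.4.5 and GRCh38 are named in the submitters' processing notes, with no role or order; the annotation, strandedness and read totals are not given in the sources used here. Since FPKM are shares of a library, a rise of abundant genes lowers the rest, and a fold on log2(FPKM + 1) understates the change of low genes. With no read totals, counting error could not be given per gene. Relative depth was read from the step between low FPKM, with large ratios dropped.

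Groups came from the sample titles. Genes with at least 1 FPKM in 3 libraries of a fit were tested with limma 3.58.1 (R 4.3.3, intensity trend) on log2(FPKM + 1), and p-values were adjusted over all genes tested by Benjamini-Hochberg. The AsPC-1 fit held 8 libraries, the Capan-1 fit 6 and the joint fit 14. The library whose siRNA target was not reduced was left out of the main tests and kept in an alternative. Other alternatives were another pseudocount, no filter, a filter of 5 FPKM, median-ratio scaling, rescaling without mitochondrial mRNAs, no intensity trend, a replicate block, other groups in the fit, and leaving out each library. The script was tested on simulated data. The members and the gene lists were chosen with earlier results of these data known. Library values are given for the 3 genes with the smallest p in each role or list and for genes whose called directions differed, and the other members are accounted for by fold change or count; members outside this rule whose library values are given were chosen after the values were seen and are named in the text. Values of 1 gene that the rule names are not reported here. Positions came from GENCODE 29 and promoters from RefSeq, both on GRCh38. Tables and figures were made with Python 3.11.15, numpy 2.4.6, pandas 2.3.3 and matplotlib 3.10.9.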

Additional observations from a re-analysis of the deposited data

Results flagged for a closer look

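Of the 46 genes 11 differed in their response to siB3GNT3 between AsPC-1 and Capan-1 by the interaction term of limma, with p-values adjusted over all genes. Lower in AsPC-1 were 17.4% and higher 6.52%, against 13.8% and 19% of the 12236 genes tested. The values that follow are the response in AsPC-1 minus that in Capan-1 on the log2(FPKM + 1) scale. PIMREG stood at -0.928 (adjusted p = 0.00152), CKAP2 at -0.475 (0.0101), CDC20 at -0.463 (0.0043) and MAD2L1 at -0.363 (0.0129). CCNB1 had -0.36 (0.0267), PLK1 -0.359 (0.00928), BUB3 -0.345 (0.00354) and FOXM1 -0.292 (0.0253). Positive differences were 0.98 for CDC25B (0.000184), 0.608 for KIF2C (0.0118) and 0.454 for AURKA (0.0363). CDC25B was the only one with called responses of opposite sign in the 2 lines, 0.43 in AsPC-1 and -0.55 in Capan-1. AsPC-1 enters with replicates 1 and 2 of siB3GNT3.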

How the results depend on the processing

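No call for any of the 46 genes reversed in sign under any setting run. With the library labelled AsPC-1 siB3GNT3 replicate 3 kept, the members higher with siB4GALT5 went from 1 to 0 and those lower from 33 to 23. For siB3GNT3 in AsPC-1 the members lower, the members higher and all genes called each became 0 (16, 1 and 3011 at an unadjusted p under 0.05), with a members' median of -0.207. In the same setting the members higher with siB4GALT5 against siB3GNT3 became 0 (1 unadjusted) with 1716 of all genes called, and the members with a lower response in AsPC-1 than in Capan-1 became 0 with 1204 of all genes called. Without a filter 4 members were lower with siB4GALT5 against siB3GNT3 and 11 with siB3GNT3 in Capan-1, and a filter of 5 FPKM gave 5 higher in the former. The median with siB3GNT3 in AsPC-1 was -0.363 after median-ratio scaling. The cause was not tested, beyond the number of genes that each filter left.

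Leaving out each library in turn gave 1 to 2 members higher and 27 to 39 lower with siB4GALT5, and 15 to 32 lower with siB3GNT3 in AsPC-1. For siB4GALT5 against siB3GNT3 it gave 3 to 16 lower, 2 to 8 higher and 2134 to 4865 of all genes called. In Capan-1 it gave 8 to 31 lower and 2069 to 5715 of all genes. For the difference between lines it gave 5 to 10 lower, 2 to 6 higher and 2839 to 5036 of all genes. The median difference between the lines with siNC ran from 0.02, without AsPC-1 siNC replicate 3, to 0.07.

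Deviations of libraries with the same replicate number in their titles correlated at -0.057 to 0.06, and those with different numbers at -0.138 to 0.106. For AsPC-1 siNC and siB4GALT5 the same-number values were 0.032 to 0.06 and the others -0.041 to -0.001. Some library names carry other numbers than the titles, and pairing by these names was not tested. Whether libraries were paired is thus not settled. With the replicate block 36, 20 and 17 members were lower with siB4GALT5, siB3GNT3 in AsPC-1 and siB3GNT3 in Capan-1, and the median for siB3GNT3 in AsPC-1 was -0.205. Read totals are not given in the sources used here, so no limit of detection could be set.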
